A study of Mus musculus with 6 samples.

Results

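Immediate-early genes are the first genes that a cell transcribes when a signal reaches it, before any new protein has been made, and 10 of them were examined in the livers of mice fed a high-fat diet (HFD): Fos, Fosb, Jun, Junb, Jund, Egr1, Ier2, Ier3, Klf2 and Btg2. They were taken by symbol from the deposited table of 45777 genes, as a family chosen with earlier results of these data known, and each symbol matched 1 row. Of the 10, 9 had reads in enough libraries to be tested among 17274 genes, and Fosb did not. Bulk RNA-seq of whole liver compared 3 LT mice, which are Fpn fl/fl littermates without Cre, with 3 Fpn-LKO mice, which carry the same floxed alleles of the ferroportin gene Slc40a1 (Fpn) together with albumin-Cre. All 6 were C57BL/6 males on the HFD, with 1 library per mouse. The floxed allele came from another inbred line and was backcrossed to C57BL/6J, and both groups carried it. Albumin-Cre was used to target hepatocytes, and the ferroportin gene of endothelial cells, Kupffer cells and the other liver cells was not measured apart. The methods start the diets in young adult mice, and an age at tissue collection is not given for these 6 in the sources used here. The comparison asks what the loss of hepatocyte iron export does to the liver transcriptome under the HFD.

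FOS proteins pair with JUN proteins to form the transcription factor AP-1, which binds DNA through a leucine zipper and responds to growth factors, cytokines and stress. JUN proteins can also pair with each other, whereas FOS proteins cannot. EGR1 is a zinc finger factor induced by the same kinase cascades, KLF2 is a zinc finger factor best known from endothelial cells under blood flow, BTG2 restrains proliferation and promotes the removal of poly(A) tails, and IER2 and IER3 are small proteins induced by growth signals and stress. Their transcripts are made and lost quickly, and in liver they are induced by partial hepatectomy and ischemia.

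The promoters of immediate-early genes carry sites for factors that already wait in the cell, so the stretch before the start site is shown for 4 of the genes: Fos and Jun as the founding AP-1 pair, and Btg2 and Klf2 because their groups did not overlap in the comparison given further on. Each is the 180 bases before the start of the RefSeq entry (GRCm38.p6), written 5′ to 3′ on the gene's strand. Capitals mark a full cyclic AMP response element (CRE, TGACGTCA), its shorter core (TGACGT), the Jun site (TGACATCA) and the TATA box (TATAAA) on that strand.
Fos: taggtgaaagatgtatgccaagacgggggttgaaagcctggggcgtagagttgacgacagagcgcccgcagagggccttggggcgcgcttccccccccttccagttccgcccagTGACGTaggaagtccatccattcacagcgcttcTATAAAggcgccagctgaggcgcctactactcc
Jun: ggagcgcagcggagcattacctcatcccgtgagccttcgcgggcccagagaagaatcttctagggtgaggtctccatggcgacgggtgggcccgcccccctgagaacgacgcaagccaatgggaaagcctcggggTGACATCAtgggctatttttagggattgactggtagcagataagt
Btg2: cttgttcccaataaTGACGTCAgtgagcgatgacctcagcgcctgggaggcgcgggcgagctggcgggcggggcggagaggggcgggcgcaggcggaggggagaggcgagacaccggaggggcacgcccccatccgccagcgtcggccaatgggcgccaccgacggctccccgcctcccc
Klf2: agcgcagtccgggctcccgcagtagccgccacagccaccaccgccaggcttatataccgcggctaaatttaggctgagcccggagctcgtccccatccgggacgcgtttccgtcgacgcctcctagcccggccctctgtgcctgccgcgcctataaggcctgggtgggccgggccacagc
The Fos stretch lies at chr12:85473710-85473889 on the plus strand, the Jun stretch at chr4:95052223-95052402 on the minus strand, the Btg2 stretch at chr1:134079156-134079335 on the minus strand, and the Klf2 stretch at chr8:72318882-72319061 on the plus strand.

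RefSeq promoter entries matched 8 of the 10 genes, all but Egr1 and Ier2, and both strands of the 250 bases before the start were searched in each. In Fos, a CRE core lay 66 to 61 bases before the start and a TATA box 33 to 28 bases before it. Jun held the Jun site 45 to 38 bases before its start, a sequence that differs from the CRE and that JUN and ATF2 proteins bind. Btg2 had the only full CRE among the 8, at 166 to 159 bases, and a CRE holds the core on both strands. Klf2 had none of these 4 motifs and instead held GC boxes (GGGCGG) at 214 to 209 and 195 to 190 bases, upstream of the printed stretch.

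Over all 32817 promoter windows of the same length, 1.55% held a full CRE, 6.46% the core, 2.93% the Jun site and 12.4% the TATA box, while among the 8 genes these counts were 1, 2, 1 and 1. GC boxes were found in 6 of the 8 genes against 32.7% of all windows, and CCAAT boxes in 4 of 8 against 33.8%. The AP-1 site TGANTCA (0 of 8, 6.75% of all windows) and the CArG box bound by SRF (0 of 8, 1.47%) did not occur in these windows, which says nothing of the sequence further away. The Jund entry begins 1210 bases before the GENCODE start of Jund-201, so its window may not be the promoter of the transcript counted and is not shown.

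Total counts on genes lay between 43086184 and 47778683 per library, and values are given as CPM, reads scaled to the TMM-adjusted size of the library, unless TPM, which also divides by transcript length, is named. Slc40a1, the targeted gene, had 153 ± 27.0 CPM in LT and 154 ± 18.7 CPM in the other group (SD, n = 3 each), and its log2 fold change was 0.0073 (standard error, SE, 0.16). Because the count of the deleted gene was not lower, the second group is written as the libraries labelled Fpn-LKO, and each direction rests on the labels. With 1 count per gene in the table, transcripts without the deleted part would still add to it, so this count checks the labels only in part. Alb, Apoa1 and the other hepatocyte markers were all detected, with 6 of 6 above 0 and a summed level of 58800 to 73592 CPM in LT and 60837 to 70902 CPM in the libraries labelled Fpn-LKO. In whole liver, fewer cells of a type and less RNA per cell cannot be told apart. With 3 mice against 3, an exact permutation test cannot give a p-value under 0.1, p-values measure the spread between these mice, and the intervals on read counts cover counting error only.

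None of the 9 genes tested passed an adjusted p-value of 0.05 in the quasi-likelihood test of edgeR, Benjamini-Hochberg adjusted, where 0.0232% of all genes did, nor with edgeR's exactTest (0.365% of all genes) or DESeq2's Wald test (0.417% of all genes). At an unadjusted p-value under 0.05, 2 of the 9 were higher in the libraries labelled Fpn-LKO (Jund and Btg2), beside 2.62% of all genes, and 0 of 9 were lower, beside 2.19%. Groups did not overlap for 3 of the 9 with the libraries labelled Fpn-LKO higher (Jund, Klf2 and Btg2), beside 5.25% of all genes, and for 0 of 9 with those libraries lower, beside 5.34%. Positive log2 fold changes were found for 8 of the 9 genes, Ier3 being the exception, and their median was 0.61, against -0.0040 for all genes tested. Exact two-sided permutation tests of the CPM values gave p = 0.1 for Jund, Klf2 and Btg2 and 0.2 to 0.8 for the other 6. By role, the JUN genes lay between 0.22 and 0.63 on the log2 scale, and the values of Junb (0.22), Fos (0.63) and Egr1 (1.39) each turned negative without 1 library. Among the marker lists, the 5 red blood cell genes also had positive log2 fold changes, 5 of 5 with a median of 0.58, on summed levels of 351 to 941 CPM in LT and 474 to 1243 CPM in the other group, which overlapped. The part of blood in the values of the 9 genes was not tested.

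**Figure D1:**
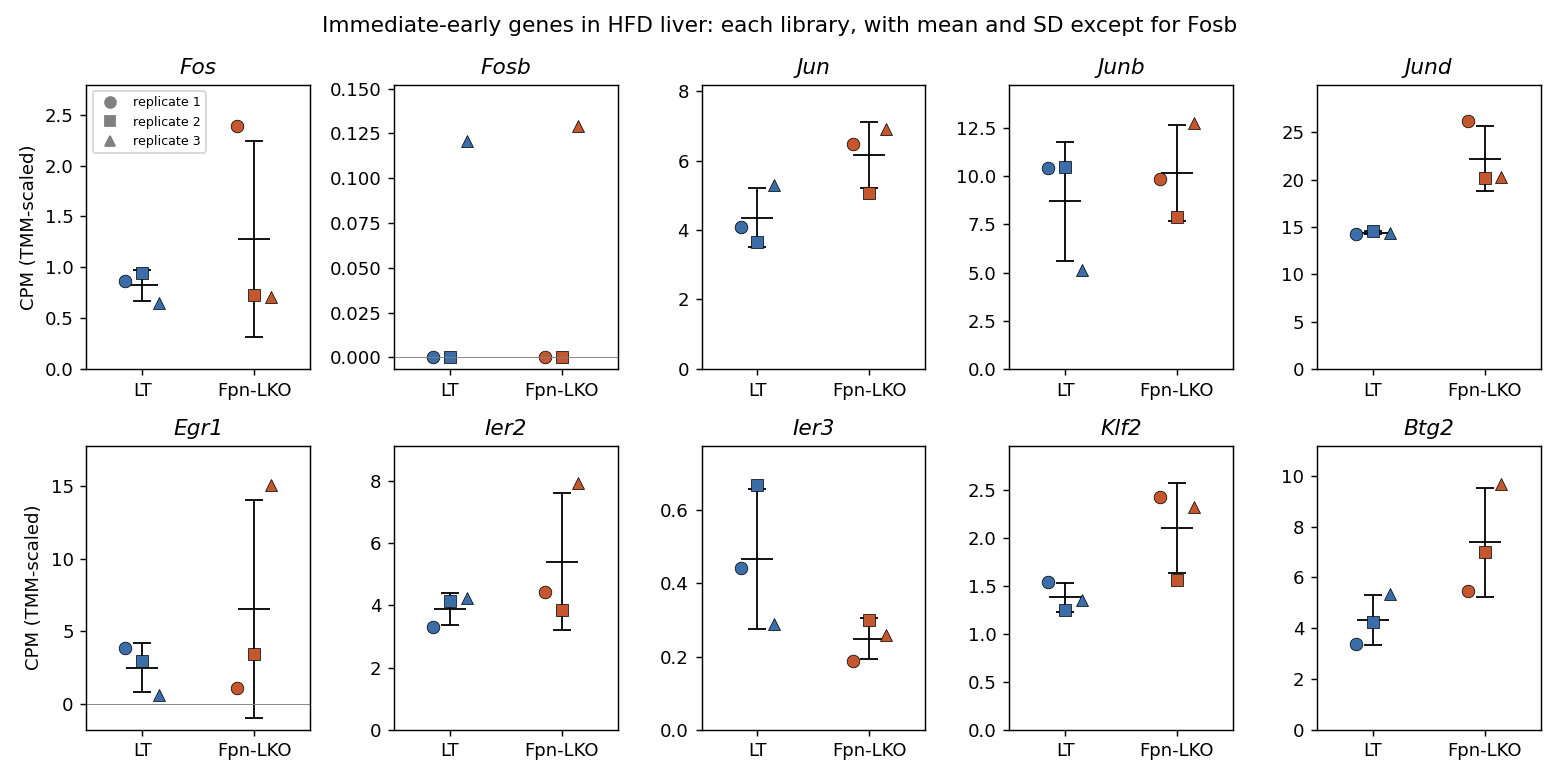
CPM of the 10 genes in each library, 1 panel per gene with its own linear axis; circles, squares and triangles are replicates 1 to 3, blue for LT and orange for the libraries labelled Fpn-LKO, and black bars give the mean and SD (n = 3 per group), left out for Fosb. Jund, Klf2 and Btg2 show no overlap between the groups, Fos is high in Fpn-LKO replicate 1 alone (2.39 CPM) and Egr1 in Fpn-LKO replicate 3 (15.1 CPM).

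In AP-1, the JUN proteins pair with FOS proteins or with each other. Jund, the member that most cells express without stimulation, was the gene of the 10 with the smallest p-value. Jund (NCBI gene 16478) spans positions 70697739 to 70700616 of chromosome 8 (GRCm38) and has a single exon. It had 14.3, 14.6 and 14.3 CPM in the LT livers against 26.2, 20.2 and 20.3 CPM under the Fpn-LKO label, each in the order of replicates 1 to 3. Every one of the latter was above every LT library, and the LT libraries lay within a narrow range. Mean levels were 14.4 ± 0.180 and 22.2 ± 3.43 CPM (SD, n = 3 each), or a 1.54-fold difference.

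At a log2 fold change of 0.63 (SE 0.14), it missed the threshold (edgeR adjusted p of 0.649), although by unadjusted p-value (0.00207) Jund ranked 52 among the 17274 genes. The adjusted p was 0.142 with exactTest and 0.0540 with DESeq2, and over all 14 alternatives it ranged from 0.0540 to 1.00. The log2 fold change stayed between 0.49 and 0.70 in all 14, with an unadjusted p-value under 0.05 in each. The antisense gene Gm11175 shares 543 of the 1668 exonic bases of Jund and is not in the table, and the sources used here do not say whether counting used the strand. If it did not, reads of this gene pair cannot be told apart.

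Jun, the founding JUN gene and itself a target of AP-1, lies on chromosome 4 from 95049036 to 95052222 with a single exon. Jun had 4.1, 3.65 and 5.29 CPM in the LT livers against 6.48, 5.08 and 6.92 CPM under the Fpn-LKO label. The groups overlapped through LT replicate 3 and Fpn-LKO replicate 2. Its log2 fold change was 0.50 (SE 0.22, edgeR adjusted p of 0.982), with an unadjusted p-value of 0.0520 that fell under 0.05 in 9 of the 14 alternatives. On TPM, the Jun values of 1.80, 1.43 and 1.90 in LT and 2.51, 2.38 and 2.86 in the libraries labelled Fpn-LKO did not overlap. TPM shifted the median over all genes by 0.083 (log2) relative to TMM scaling. The antisense gene Junos, which overlaps Jun over 232 bases, had 18 to 36 reads per library and a log2 fold change of -0.21.

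Junb, which often opposes JUN on growth genes, lies on chromosome 8 from 84976909 to 84978748, also with a single exon. Junb had 10.4, 10.5 and 5.12 CPM in the LT livers against 9.85, 7.86 and 12.8 CPM under the Fpn-LKO label. Its LT replicate 3 stood at about the level of Jun, well under the other 5 libraries, and the groups overlapped. A log2 fold change of 0.22 (SE 0.31, edgeR adjusted p of 0.995) became -0.043 when LT replicate 3 was left out. Prdx2, a peroxiredoxin gene on the opposite strand that overlaps Junb, had 79.2 to 107 CPM and a log2 fold change of 0.21, so unstranded counting could add reads of Prdx2 to Junb.

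FOS proteins pair with JUN proteins in AP-1, and the FOS transcripts were scarce. Fos, on chromosome 12 from 85473890 to 85477274 with 4 exons, had 0.864, 0.947 and 0.653 CPM in the LT livers against 2.39, 0.728 and 0.711 CPM under the Fpn-LKO label. A single library set the difference: Fpn-LKO replicate 1 held 114 reads (exact Poisson 95% interval 94.0 to 137), whereas the other 5 held 27 to 43 reads. The estimate was a log2 fold change of 0.63 (SE 0.54, edgeR adjusted p of 0.985), and without Fpn-LKO replicate 1 it was -0.19. The other 2 libraries labelled Fpn-LKO lay inside the LT range.

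Fosb, on chromosome 7 from 19302696 to 19310118, was nearly silent. It had 5 reads in LT replicate 3, 6 reads in Fpn-LKO replicate 3 and 0 reads in the other 4 libraries, where the one-sided limit set for a count of 0 is 3 reads per library, or 0.0603 to 0.0693 CPM. No difference between the groups was detectable at this depth, and no fold change is given.

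**Figure D2:**
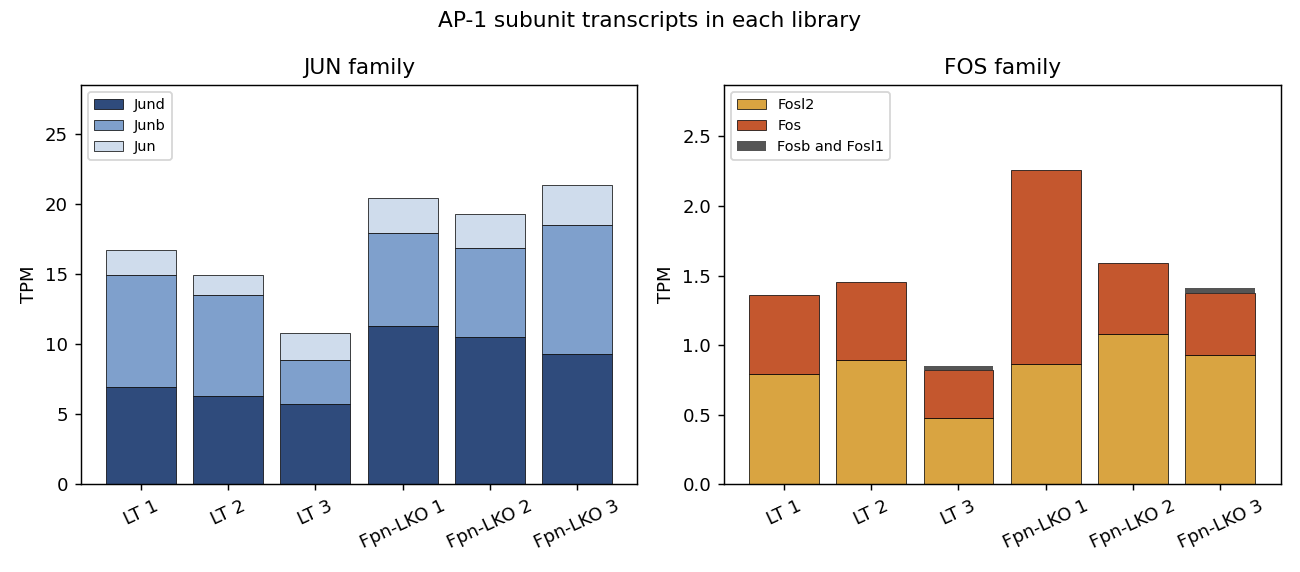
TPM of the JUN family (left: Jund, Junb and Jun stacked) and of the FOS family (right: Fosl2, Fos, and Fosb with Fosl1 stacked) in each library, on linear axes that start at 0 and differ between panels. The JUN sum is 10.8 to 16.7 TPM in LT and 19.3 to 21.3 TPM in the libraries labelled Fpn-LKO, and Fos is the larger part of the FOS sum in Fpn-LKO replicate 1 alone.

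Levels per transcript length allow the AP-1 genes to be set against each other. Summed TPM of Jun, Junb and Jund was 16.7, 14.9 and 10.8 in LT, and 20.4, 19.3 and 21.3 in the libraries labelled Fpn-LKO. The 2 groups did not overlap, with means of 14.1 ± 3.04 and 20.3 ± 1.05 TPM (SD, n = 3 each). Jund and Junb made up most of this sum in every library, and Jund alone took 41.6%, 42.5% and 52.8% of it in LT and 55.2%, 54.5% and 43.6% in the libraries labelled Fpn-LKO, so that its share overlapped between the groups. The percentage of Jun was 9.59% to 17.6% over the 6 libraries.

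The FOS family, summed over Fos, Fosb, Fosl1 and Fosl2, reached 1.36, 1.45 and 0.855 TPM in LT, and 2.26, 1.59 and 1.41 TPM in the libraries labelled Fpn-LKO, which overlapped. JUN transcripts therefore outnumbered FOS transcripts by 9.03 to 15.1 times in each liver. Fosl2, a more stable FOS relative, was the most abundant FOS gene in 5 of the 6 libraries. Fos took 61.7% of the FOS sum in Fpn-LKO replicate 1 and 31.4% to 41.5% in the other 5.

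Egr1, a direct target of the MAP kinase cascade, varied more than any other of the 9 genes. It lies on chromosome 18 from 34861207 to 34864956 and has 2 exons. Egr1 had 3.88, 2.96 and 0.604 CPM in the LT livers against 1.07, 3.43 and 15.1 CPM under the Fpn-LKO label. The highest library, Fpn-LKO replicate 3, held 24.9 times the CPM of the lowest, LT replicate 3, and the other 4 were spread between them with both groups mixed. Its log2 fold change of 1.39 (SE 0.96, edgeR adjusted p of 0.982) was the largest of the 9, and became -0.14 without Fpn-LKO replicate 3. Over the 14 alternatives it ranged from -0.14 to 1.89.

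Egr1 and Fos, which share inducing signals, did not peak in the same liver. The ratio of Egr1 to Fos CPM was 0.447 in Fpn-LKO replicate 1, where Fos was highest, and 21.2 in Fpn-LKO replicate 3, where Egr1 was highest. In LT replicates 1 to 3 this ratio was 4.49, 3.12 and 0.926. The 8 Kupffer cell and macrophage markers, all detected, also had their highest summed level in Fpn-LKO replicate 3 (287 to 386 CPM in LT, and 239 to 510 CPM under the Fpn-LKO label), and their part in the Egr1 value was not tested.

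The growth-response genes Ier2 and Ier3 had log2 fold changes of opposite sign. Ier2, a single-exon gene on chromosome 8 from 84661331 to 84662852, had 3.29, 4.13 and 4.25 CPM in the LT livers against 4.42, 3.86 and 7.93 CPM under the Fpn-LKO label. Fpn-LKO replicate 3 was again the highest, and the other 2 libraries of that group lay close to LT. Its log2 fold change was 0.47 (SE 0.30, edgeR adjusted p of 0.982), with 0.091 to 0.67 over the alternatives. On TPM the Ier2 groups did not overlap, with 3.03, 3.40 and 3.20 in LT and 3.59, 3.77 and 6.89 in the libraries labelled Fpn-LKO. They did overlap on CPM, where Fpn-LKO replicate 2 lay inside the LT range. The lack of overlap therefore depends on the scale, and TPM shifted the median over all genes by 0.083 (log2) relative to TMM scaling.

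Ier3, which protects cells from apoptosis under NF-kappaB signalling, lies on chromosome 17 from 35821713 to 35822911 and was the only one of the 9 with a negative log2 fold change. Ier3 had 0.442, 0.670 and 0.290 CPM in the LT livers against 0.189, 0.30 and 0.259 CPM under the Fpn-LKO label. These values came from 9 to 29 reads per library, and the groups overlapped. A log2 fold change of -0.90 (SE 0.47, edgeR adjusted p of 0.982) stayed negative in all 12 alternatives that could test Ier3.

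Klf2, a flow-responsive factor of the endothelium, lies on chromosome 8 from 72319062 to 72321654 and has 3 exons. It had 1.55, 1.25 and 1.35 CPM in the LT livers against 2.43, 1.56 and 2.33 CPM under the Fpn-LKO label. The groups did not overlap, but LT replicate 1 (77 reads) and Fpn-LKO replicate 2 (73 reads) were almost level. The log2 fold change was 0.61 (SE 0.29, edgeR adjusted p of 0.982), and its unadjusted p-value of 0.0717 fell under 0.05 in 1 of the 14 alternatives.

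The 8 endothelial markers, all detected, had a summed level of 292 to 346 CPM in LT and 280 to 291 CPM in the libraries labelled Fpn-LKO. These sums did not overlap, but LT replicate 1 (291.9 CPM) and Fpn-LKO replicate 1 (290.9 CPM) nearly met. The markers did not move together, with 3 positive and 5 negative log2 fold changes, and the groups overlapped for each marker alone. Among these markers, Kdr, the main VEGF receptor, had a log2 fold change of -0.30 (unadjusted p = 0.0511), and Lyve1, a sinusoidal and lymphatic marker, one of 1.30 (unadjusted p = 0.0446), with 1 of the 8 under 0.05. The part of endothelial cell number in the Klf2 value was not tested.

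Btg2, whose promoter holds the full CRE shown above, is a p53 target that slows cell division. It lies on chromosome 1 from 134074865 to 134079155 and has 2 exons. Btg2 had 3.39, 4.23 and 5.34 CPM in the LT livers against 5.47, 6.98 and 9.68 CPM under the Fpn-LKO label. The groups did not overlap, although LT replicate 3 and Fpn-LKO replicate 1 nearly met. Mean levels were 4.32 ± 0.977 and 7.38 ± 2.13 CPM (SD, n = 3 each), or a 1.71-fold difference.

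The log2 fold change of Btg2 was 0.77 (SE 0.27), with an unadjusted p-value of 0.0224 and an edgeR adjusted p of 0.982. With exactTest the adjusted p was 0.659, with DESeq2 it was 0.453, and over the 14 alternatives it ranged from 0.453 to 1.00. The direction held in all 14 alternatives, with log2 fold changes from 0.53 to 0.95. The unadjusted p-value was 0.05 or more without LT replicate 1 (0.0767), LT replicate 2 (0.0582) or Fpn-LKO replicate 3 (0.0831).

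**Figure D3:**
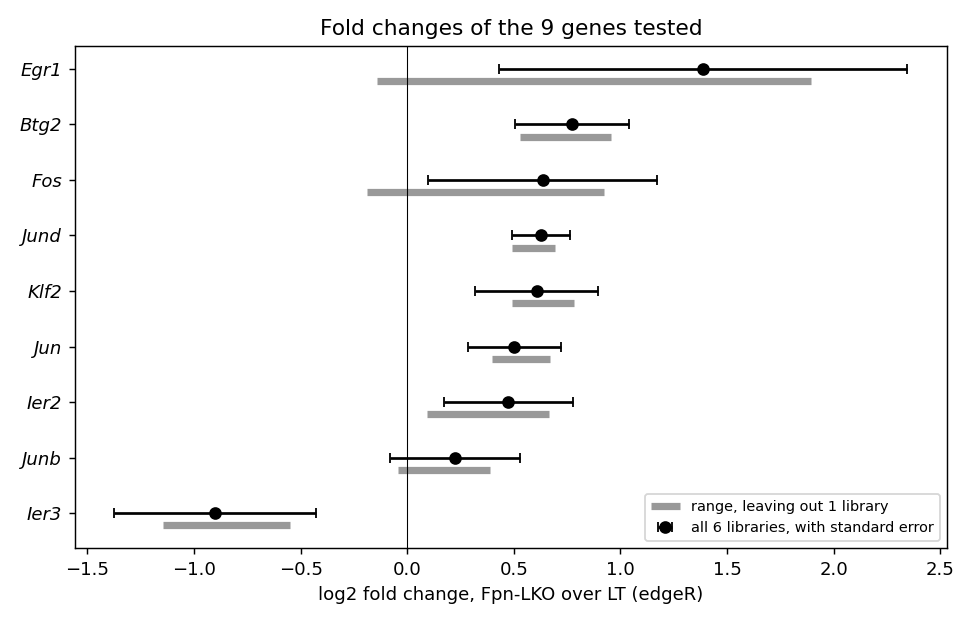
Log2 fold changes of the 9 genes tested, libraries labelled Fpn-LKO over LT (edgeR); black points and whiskers give the estimate from all 6 libraries with its standard error, and grey bars the range when each library is left out in turn. The grey bars of Egr1, Fos and Junb cross 0, whereas those of Jund (0.49 to 0.69), Btg2 (0.53 to 0.95), Klf2, Jun, Ier2 and Ier3 do not.

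Which library stood high differed from gene to gene. Fpn-LKO replicate 3 was the highest for 5 of the 9 genes (Jun, Junb, Egr1, Ier2 and Btg2), Fpn-LKO replicate 1 for 3 (Fos, Jund and Klf2) and LT replicate 2 for Ier3. The lowest value fell in an LT library for 8 of the 9 genes and in Fpn-LKO replicate 1 for Ier3. Averaged over the 9 genes, log2 CPM relative to each gene's own mean was -0.10, -0.046 and -0.47 in the LT livers (replicates 1 to 3) against 0.090, -0.018 and 0.55 under the Fpn-LKO label. On this average LT replicate 3 was the lowest library and Fpn-LKO replicate 3 the highest, while LT replicate 2 and Fpn-LKO replicate 2 lay almost together.

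**Figure D4:**
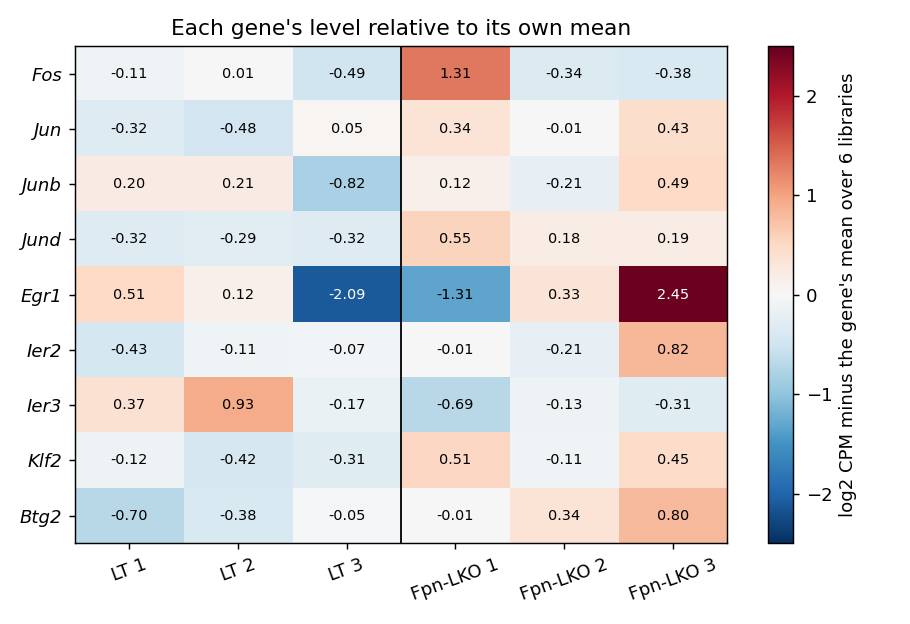
Log2 CPM of the 9 genes tested minus each gene's mean over the 6 libraries, with LT on the left of the black line and the libraries labelled Fpn-LKO on the right; red is above and blue below the gene's mean, and the value stands in each cell. Egr1 spans from -2.09 in LT replicate 3 to 2.45 in Fpn-LKO replicate 3, Fos reaches 1.31 in Fpn-LKO replicate 1 alone, and Jund is negative in all LT libraries and positive in all others.

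Within a genotype, most of these genes were more variable than the median gene. Their median within-group SD of log2 CPM was 0.413, against 0.230 for the 12577 genes tested with a mean CPM of at least 1, and 8 of the 9 were above that median. Ier3, with a mean of 0.358 CPM, was under the level asked of those genes, and the 2 sets were not matched for level. Fos and Ier3 had the fewest reads of the 9, and the part of level and counting error in the spread was not tested for any of them. Egr1 (SD 1.66) stood at the 99.3 percentile of those genes and Fos (SD 0.708) at the 94.8 percentile. Jund, with an SD of 0.152, was at the 25.7 percentile and was the only one under the median.

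Compared per length, the order of levels was much the same in both groups. In LT, Jund (6.33 ± 0.627 TPM) and Junb (6.10 ± 2.56 TPM) came first and did not differ beyond their spread (SD, n = 3 here and below). Ier2 (3.21 ± 0.187 TPM) was lower than both by more than the spread, and was followed by Btg2 (1.75 ± 0.226 TPM), Jun (1.71 ± 0.249 TPM) and Egr1 (1.06 ± 0.782 TPM). The last 3 neighbours did not differ beyond their spread, nor did Egr1 and Klf2 (0.965 ± 0.198 TPM). Ier3 (0.540 ± 0.240 TPM), lower than Klf2 by more than the spread, and Fos (0.489 ± 0.126 TPM) were again not apart and preceded Fosb.

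In the libraries labelled Fpn-LKO, Jund (10.4 ± 0.978 TPM) exceeded Junb (7.39 ± 1.54 TPM) by more than the spread. Ier2 (4.75 ± 1.85 TPM), Btg2 (3.24 ± 0.984 TPM), Egr1 (2.86 ± 3.19 TPM) and Jun (2.58 ± 0.250 TPM) followed with no gap between neighbours beyond the spread. Klf2 (1.54 ± 0.230 TPM) stood apart from its neighbours on both sides. Fos (0.783 ± 0.531 TPM) and Ier3 (0.303 ± 0.0976 TPM) changed places relative to LT, with overlapping spread. For scale, Slc40a1 had 58.4 ± 13.5 TPM in LT and 62.0 ± 8.38 TPM in the libraries labelled Fpn-LKO.

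The relatives of the 10 genes were read from lists written by hand. Among 11 tested of 12 other AP-1 subunits, including the BATF and small MAF proteins, 1 was higher at an unadjusted p-value under 0.05, beside 2.62% of all genes, and the median log2 fold change was 0.18. That gene was Atf3, a stress-induced partner of JUN, with 0.663, 0.600 and 1.52 CPM in the LT livers against 4.68, 1.20 and 3.64 CPM under the Fpn-LKO label. Its groups overlapped through Fpn-LKO replicate 2, and its log2 fold change was 1.78 (SE 0.58, edgeR adjusted p of 0.982). Atf2, which binds the Jun site as a dimer with JUN, came second by p-value with a log2 fold change of -0.19 (unadjusted p = 0.174).

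Of 8 other EGR and NR4A factors and their NAB cofactors, 5 were tested, none with an unadjusted p-value under 0.05, and the median log2 fold change was 0.13. Nr4a1, an orphan nuclear receptor induced with Egr1, had a log2 fold change of 0.88 (SE 0.47), and Egr2 one of 1.24 (SE 0.92) on at most 0.210 CPM. Of 12 other KLF factors, 11 were tested, again none under 0.05, with a median of -0.037. Klf3 (log2 fold change 0.34, SE 0.18) and Klf12 (-0.34, SE 0.23) had the smallest p-values among them, in opposite directions.

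A broader list of other immediate-early genes, such as Myc, Dusp1, Zfp36 and Socs3, had 34 of its 36 names in the table and 30 genes tested. Of these, 2 were higher and 0 lower at an unadjusted p-value under 0.05, beside 2.62% and 2.19% of all genes, with 18 positive and 12 negative log2 fold changes and a median of 0.065. Plk3, a polo-like kinase induced by serum and DNA damage, had 31.4, 20.2 and 25.8 CPM in the LT livers against 49.8, 58.5 and 49.5 CPM under the Fpn-LKO label, with no overlap. Its log2 fold change was 1.03 (SE 0.17), with an adjusted p of 0.401 in the quasi-likelihood test of edgeR, 0.000937 by exactTest and 0.000295 by DESeq2, each with Benjamini-Hochberg adjustment. Dusp1, the phosphatase that ends MAP kinase signalling, had a log2 fold change of 0.58 (SE 0.24, unadjusted p = 0.0454), also with no overlap.

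**Figure D5:**
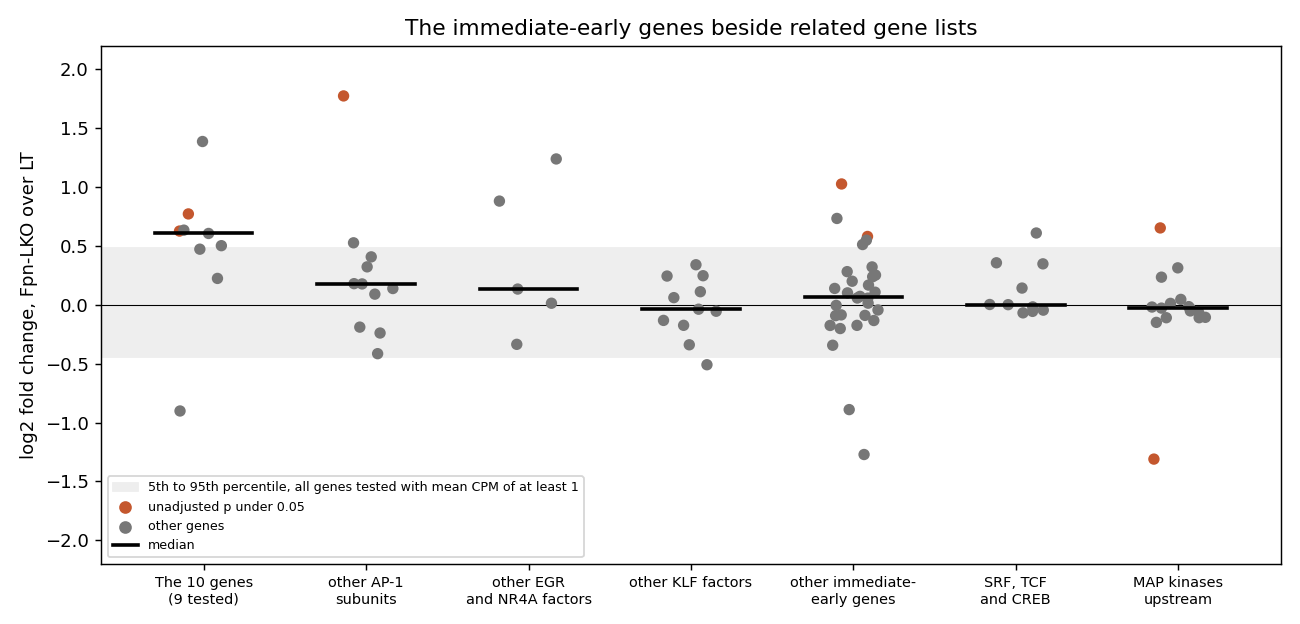
Log2 fold changes (libraries labelled Fpn-LKO over LT, edgeR) of the immediate-early genes and of 6 related lists, 1 point per gene tested, in orange where the unadjusted p-value is under 0.05; black lines are medians and the grey band spans the 5th to 95th percentile (-0.44 to 0.49) of all genes tested with a mean CPM of at least 1. The median of the 9 genes is 0.61, and the medians of the other 6 lists shown lie between -0.037 and 0.18; points are spread sideways at random within a list.

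The genes with the profile nearest to the average of the 9 genes were sought over the 6 libraries among the 12577 genes with a mean CPM of at least 1, by the root mean square difference of log2 CPM after centring. Ecscr was the nearest (difference 0.0349), followed by Tubb4b (0.0655), Zfp455 (0.0728), Cyp4f17 (0.0892) and Serpina3g (0.0898). Ecscr, an endothelial surface protein gene, had 1.25, 1.32 and 0.943 CPM in the LT livers against 1.4, 1.24 and 1.92 CPM under the Fpn-LKO label. As follows from the choice by profile, its highest and lowest libraries were those of the average, Fpn-LKO replicate 3 and LT replicate 3.

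For Fos alone the 5 nearest were Rnf144a (difference 0.153), Gm30959 (0.165), D930048N14Rik (0.183), Lhpp (0.208) and Gm40040 (0.208). Being chosen by the profile of Fos, all 5 shared its peak in Fpn-LKO replicate 1, which is no separate result. Rnf144a, a ubiquitin ligase gene, had 3.54 CPM there and 0.894 to 1.59 CPM in the other 5 libraries.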

How the data were processed

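Liver RNA from 6 mice was sequenced, and the authors deposited read counts, FPKM and TPM per NCBI gene. Per the submitters' processing notes, the tools were bcl2fastq 2.20.0, FastQC 0.11.7, Bowtie2 2.3.4.1, HISAT2 2.1.0 and StringTie 2.1.3b, with the genome build mm10. The counts deposited by the authors are not normalized, the FPKM values of the authors are divided by library size and transcript length, and the TPM values of the authors sum to the same total in every library. FPKM was not used. The labels name a stranded mRNA kit and the methods a stranded total RNA kit with removal of rRNA. RNAs without a poly(A) tail took 7.65%, 7.83% and 8.76% of the counts in LT replicates 1 to 3. In Fpn-LKO replicates 1 to 3 they took 10.2%, 3.29% and 4.49%, so the low shares fell in 2 libraries of 1 group. All 5 on a list of them had negative log2 fold changes (median -0.44), none with an unadjusted p-value under 0.05. The part of this library difference in the values of the 9 genes was not tested.

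The libraries were grouped by the labels. Genes were kept if at most 1 library had 0 reads, and their counts, scaled by TMM, went into the quasi-likelihood test of edgeR 4.0.16 (R 4.3.3), with Benjamini-Hochberg adjustment over the 17274 genes kept and a threshold of 0.05. The methods name exactTest, which was run as an alternative. Alternatives, 14 in all, were also the Wald test of DESeq2 1.42.0 with independent filtering off, scaling by RLE, keeping all genes that had a read, filterByExpr, a block on the replicate number, limma 3.58.1 on TPM (pseudocounts of 1 and 0.1, mean TPM of 1 or more), and each library left out in turn. Single values were compared by exact two-sided permutation tests. Log2 CPM for spreads and profiles used a prior count of 2. The scripts were tested on simulated data. No pair of libraries of a group held the same counts within sampling noise (chi-square per degree of freedom 71.5 to 349).

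The 10 genes and the lists of related genes and markers were chosen with earlier results of these data known, and give no independent support to a pattern. Named genes were the 10, Slc40a1, genes of a list past the adjusted threshold by any of the 3 count tests or otherwise the 2 of each list with the smallest p-value, and the 5 nearest profiles. Outside this rule, Dusp1, Mef2d, Hsph1, Hspa8, Hspa1a and Hspa1b were named after their values were seen. Fosl2 and Fosl1 were named as the rest of the FOS family, and Junos, Gm11175 and Prdx2 as genes that overlap one of the 10. Myc, Zfp36, Socs3, Alb and Apoa1 are named only as examples of what a list holds. Overlaps came from GENCODE models of GRCm38, and near-identical transcripts were sought with BLAST 2.17.0 (minimum identity 90%, minimum length 100 bases), which found the 2 antisense genes Junos and Gm11175. Fosb, Ier3 and Fos had the fewest reads, so counting error is widest relative to their values. Columns of other samples numbered 0.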

Additional observations from a re-analysis of the deposited data

How the results depend on the processing

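Over the 14 alternatives, 0 of the genes examined passed the adjusted threshold in any, and their median log2 fold change stayed between 0.41 and 0.69. The count of all genes past the threshold, 4 as reported, was 72 with DESeq2, 63 with exactTest and 7 with limma at either TPM pseudocount, and 0 to 6 when 1 library was left out. With the replicate number as a block it was 0. Whether the numbers mark pairs is not settled by the data. Same-numbered libraries had correlations of 0.230, 0.0048 and 0.11, and the other pairs -0.175 to 0.084. LT replicates 1 and 3 correlated best with the library of their own number, but LT replicate 2 with Fpn-LKO replicate 3. The block changed no adjusted call of the genes examined. It moved the unadjusted quasi-likelihood p-value of Jun from 0.0520 to 0.0348 and the log2 fold change of Egr1 from 1.39 to 0.73. The count of the genes examined at an unadjusted p-value under 0.05, 2 as reported, was also 2 with exactTest. It was 3 in every other alternative that left out no library. With 1 library left out it was 1 to 4, with 1 without LT replicate 1, LT replicate 2 or Fpn-LKO replicate 3, and 4 without Fpn-LKO replicate 2. With 1 library left out, the log2 fold change ranged from -0.043 to 0.39 for Junb (lowest without LT replicate 3), from -0.19 to 0.92 for Fos (lowest without Fpn-LKO replicate 1) and from -0.14 to 1.89 for Egr1 (lowest without Fpn-LKO replicate 3). That of Slc40a1 ranged from -0.11 to 0.14 with 1 library left out, and was -0.11 without LT replicate 3 and -0.096 without Fpn-LKO replicate 3. The median within-group SD, 0.413 as reported, was 0.261 on log2(TPM + 1), where the pseudocount compresses low genes, and 0.30 to 0.448 with 1 library left out. The other causes were not tested. Fos and Ier3 had a mean TPM under 1 and no limma value, and Fosb was tested in no fit but that of all genes with at least 1 read.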

Other observations

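The kinases and factors that act before the immediate-early genes were read from the same fit. Of 16 MAP kinase pathway genes tested, 1 was higher and 1 lower at an unadjusted p-value under 0.05, beside 2.62% and 2.19% of all genes, with a median log2 fold change of -0.030. Map2k6, the kinase that activates p38, had 9.40, 17.8 and 8.43 CPM in the LT livers against 3.79, 5.59 and 4.98 CPM under the Fpn-LKO label, with no overlap. Its log2 fold change was -1.31 (SE 0.31), with an adjusted p of 0.747 in the quasi-likelihood test of edgeR, 0.0448 by exactTest and 0.0143 by DESeq2. Mef2d, a factor that p38 activates, had a log2 fold change of 0.65 (SE 0.24, unadjusted p = 0.0295). SRF, its ternary complex partners and the CREB factors, 10 tested, had none under 0.05 and a median of 0.0023. Among them the CREB coactivator gene Crtc2 had a log2 fold change of 0.61 (unadjusted p = 0.0550) without overlap, and Crem one of 0.36 (unadjusted p = 0.121).

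Heat shock genes, another early stress response, had a summed level of 2136 to 2488 CPM in LT. In the libraries labelled Fpn-LKO it was 2641 to 3107 CPM, without overlap. Hspa8, with a mean of 1421 CPM, made up the largest part of this sum. Of the 10 genes, 3 were higher and 0 lower at an unadjusted p-value under 0.05, beside 2.62% and 2.19% of all genes, none passed the adjusted threshold, and the median log2 fold change was 0.12. Hsp90aa1, the inducible HSP90, had a log2 fold change of 0.73 (SE 0.24) without overlap, and Hspb1, a small chaperone, one of 0.93 (SE 0.37) with overlap. The third was Hsph1, a co-chaperone named after its value was seen, with a log2 fold change of 0.57 (SE 0.23). Log2 fold changes were positive for 8 of the 10 and negative for 2, Hspa1b (-0.32, SE 0.86) and Hspa1a (-0.30, SE 0.95), with overlap. The part of the heat shock genes in the values of Jund and Btg2 was not tested.

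Other marker sums overlapped between the groups. Stellate cell and fibroblast markers, 6 of 6 detected, had 377 to 440 CPM in LT and 401 to 448 CPM in the libraries labelled Fpn-LKO. Of these 6, 5 had positive and 1 negative log2 fold changes, and 1 was higher at an unadjusted p-value under 0.05, beside 2.62% of all genes. That gene was Pdgfrb, with a log2 fold change of 0.47 (SE 0.20, edgeR unadjusted p = 0.0460) without overlap. Col3a1 had one of 0.78 (SE 0.41) with overlap. Of the red blood cell genes, Alas2, the first enzyme of heme synthesis in erythroid cells, had a log2 fold change of 0.47 (SE 0.20, unadjusted p = 0.0475), and Hbb-bs, a beta globin gene, one of 0.79 (SE 0.51). Bile duct markers had at most 2.23 CPM in all, and neutrophil and lymphocyte markers at most 2.33 CPM, with 1 of these 6 at 0 in every library.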
